A study of Mus musculus with 4 samples.

Results

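The 10 genes described here are markers of Cajal-Retzius cells and other neurons born at the cortical hem, and they were followed in RNA-seq of embryonic mouse brain. The members are Reln, Trp73, Lhx1, Lhx5, Ebf1, Ebf2, Ebf3, Calb2, Nhlh2 and Cxcr4, and they were taken by gene symbol from both deposited count tables. All 10 were listed in both tables, among 19500 genes listed in both and 22414 genes in all. Brain with a conditional knockout of the zinc finger gene Wt1 (Wt1CKO, called Wt1_CKO, replicates 1 and 2) was compared with brain carrying floxed Wt1 alleles (labelled WT with Wt1fl/fl, called Wt1_flfl, replicates 1 and 2). All 4 samples were brain at embryonic day 13 on a C57BL/6 background. The Cre line that deleted Wt1 and the part of the brain taken are not given in the sources used here, nor is it stated whether a sample was 1 embryo or a pool. The p-values therefore measure only the spread between these samples, which may be technical. Wt1 itself was not analysed here, and the labels stand without that check.

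Cajal-Retzius cells are among the earliest neurons of the cortex. They arise at the borders of the pallium, above all at the cortical hem, a strip of the medial wall that secretes Wnt and BMP signals, and spread under the meninges over the cortical surface. There they secrete Reelin, the extracellular protein that guides the layering of later neurons, and the meningeal chemokine CXCL12 holds them at the surface through the receptor CXCR4. None of the 10 genes belongs to these cells alone. Lhx1, Lhx5 and Nhlh2 are also used by neurons of the hypothalamus and thalamus, the Ebf genes by many young neurons and by mesenchyme, Calb2 and Cxcr4 by interneurons, and Cxcr4 by blood vessels.

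Each library held 16219310 to 17704698 counts. Some differences between libraries did not follow genotype. The entry CT010467.1, annotated as rRNA, reached 4618 CPM (counts per 1000000 listed counts, scaled by TMM) in Wt1_flfl replicate 1, against 178 to 444 CPM in the other libraries. Xist had 4 counts in Wt1_CKO replicate 1 and 13086 to 16472 in the others. The neuron marker Tubb3 was abundant, at 1982 to 2375 CPM. Of 13 markers of midbrain, hindbrain and cerebellum, 5 were listed in both tables, and these summed to 3.99 to 8.46 CPM. RNA of whole tissue was measured, so fewer cells of a type and less RNA per cell cannot be told apart in any result given here.

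Calb2 and Cxcr4 were the members with the most reads for their exon length, and Ebf2 had the fewest. On the scale of CPM per kb of exon, the mean level over the 4 libraries was 13.7 ± 2.02 for Calb2, which encodes the calcium buffer calretinin, and 13.2 ± 1.74 for Cxcr4 (SD, n = 4). Lhx5 followed with 10.1 ± 4.997, Nhlh2 with 8.82 ± 2.79, Reln with 6.69 ± 2.27 and Ebf1 with 5.64 ± 0.859 CPM per kb (SD, n = 4). The lower end held Trp73 at 4.53 ± 0.473, Lhx1 at 3.14 ± 1.70, Ebf3 at 2.56 ± 0.835 and Ebf2 at 1.26 ± 0.208 CPM per kb (SD, n = 4). Neighbours in this order overlapped in their ranges over the libraries, except that Ebf2, at 1.04 to 1.54, lay below Ebf3, at 2.04 to 3.80 CPM per kb. Among the 3 EBF genes of the members, which encode related helix-loop-helix zinc-binding factors of neuronal differentiation, Ebf1 was the most abundant per length in each library. Ebf4, of the same family but not a member here, lay above Ebf1 per length in each library, at 7.70 to 9.42 CPM per kb. Of the LIM homeobox pair, Lhx1 stood at 0.345 and 0.264 of the Lhx5 level per length in Wt1_CKO replicates 1 and 2, against 0.302 and 0.322 in Wt1_flfl replicates 1 and 2. These levels depend on the exon lengths of GENCODE vM21, and the isoforms in use were not measured.

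**Figure D1:**
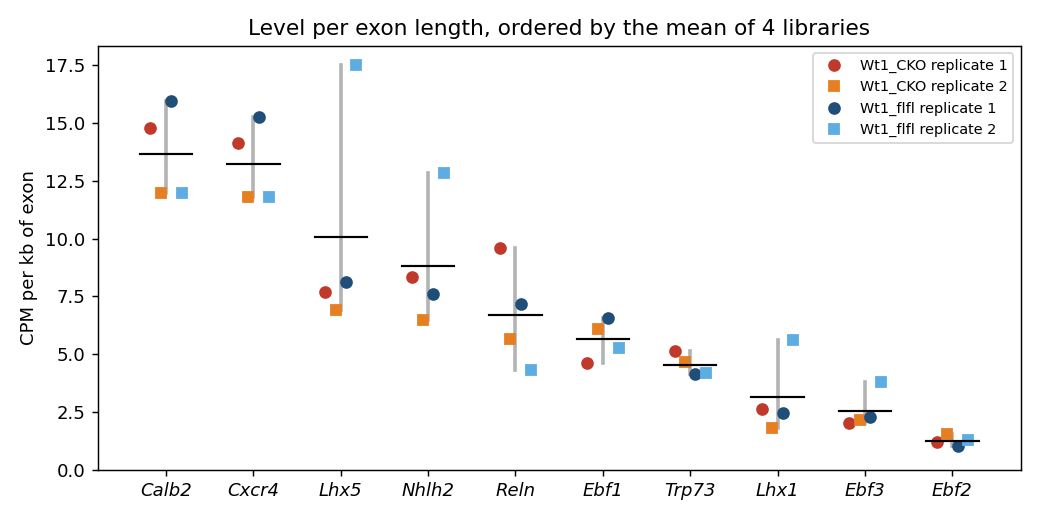
Level of the 10 genes in CPM per kb of exon (y axis, linear) in each library, ordered by the mean over 4 libraries (black line), with the range in grey. Lhx5, Nhlh2, Lhx1 and Ebf3 each have 1 library, Wt1_flfl replicate 2, set above the other 3.

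The question of the design was whether these genes differ between Wt1_CKO and Wt1_flfl brain. None of the 10 passed edgeR's quasi-likelihood test with Benjamini-Hochberg adjustment at 0.05 over all 15933 tested genes, and the adjusted p was 0.999966 for each of them. Among all tested genes 1, the pseudogene Rpl3-ps1, passed, which is 0.00628%, and DESeq2 called 5 genes and none of the members. At an unadjusted p under 0.05 edgeR found 1 member, Lhx5, beside 1.56% of all tested genes, DESeq2 found 3 members beside 179 of 19500 genes, and limma-voom found 0 members beside 232 of 15933 genes. With the replicate number as a block, edgeR found 5 members at that unadjusted threshold beside 1146 of 15933 genes, and called none after adjustment. All 10 passed the filter on low counts. Members higher in Wt1_CKO in both tables numbered 3 (Reln, Trp73 and Ebf2), beside 27% of all tested genes. Those lower in both numbered 2 (Lhx5 and Ebf3), beside 25.8%. The other 5 turned direction between the tables. The median edgeR log2 fold change was -0.10 over the members and 0.01 over all tested genes, while the medians within the tables were 0.01 for the replicate 1 libraries and 0.00 for the replicate 2 libraries. Signs thus differed between the median of the fit and those of the tables.

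Within the replicate 1 libraries, no member differed by 1.5 fold in either direction, where 5.44% of tested genes were higher and 4.44% lower by that much. Within the replicate 2 libraries, 4 of the 10 were lower in Wt1_CKO by more than 1.5 fold, namely Lhx1, Lhx5, Nhlh2 and Ebf3, beside 5.81% of tested genes. None was higher by that much, beside 4.19%. Each table sets 1 library against 1 library, so these folds have no replicate check. Ebf3, at 0.562 fold, was the member nearest to that limit on the inside, and Ebf1 in the replicate 1 libraries, at 0.706 fold, the nearest on the outside. The authors' deposited table for replicate 1 marks 0 of the 10 as significant and 3.2% of its genes. The authors' deposited table for replicate 2 marks 2 of the 10, Lhx1 and Lhx5, and 3.19% of its genes. All marked genes have an absolute log2 fold change above 1 and an adjusted p under 0.05 in the authors' own test. Members with an adjusted p under 0.05 in that test but a smaller fold change are unmarked. With replicate 1 these are Reln, Trp73 and Ebf1, and with replicate 2 Reln, Ebf1, Ebf3 and Nhlh2. That test, too, sets 1 library against 1 library.

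**Figure D2:**
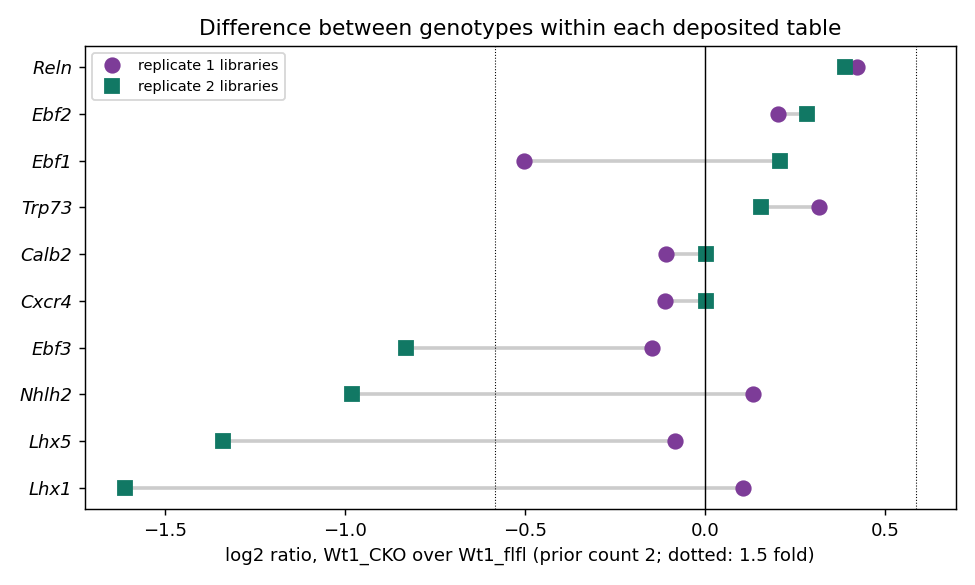
Log2 ratio of Wt1_CKO over Wt1_flfl (x axis) for each gene within the replicate 1 libraries (circles) and within the replicate 2 libraries (squares), with dotted lines at 1.5 fold. Lhx1, Lhx5, Nhlh2 and Ebf3 lie left of the dotted line with the replicate 2 libraries, and Reln, Trp73 and Ebf2 lie right of 0 with both.

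The LIM homeobox gene Lhx5 (ENSMUSG00000029595, chromosome 5, 120431699 to 120441223, plus strand, GRCm38) encodes a transcription factor needed for formation of the cortical hem and its neurons. Its level was 20.7 and 18.6 CPM in Wt1_CKO replicates 1 and 2, against 21.9 and 47.1 CPM in Wt1_flfl replicates 1 and 2. Both Wt1_CKO libraries lay below both Wt1_flfl libraries, but by little against Wt1_flfl replicate 1, and Wt1_flfl replicate 2 alone was high. The means were 19.6 ± 1.49 CPM in Wt1_CKO and 34.5 ± 17.8 CPM in Wt1_flfl (SD, n = 2 each), a log2 fold change of -0.82 ± 0.556 (SE). The antisense gene Gm27199 overlaps the start of Lhx5 and had 47 and 28 counts in Wt1_CKO and 41 and 90 in Wt1_flfl. The labels do not say whether strand was kept, so reads of their shared bases cannot be told apart.

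Lhx1 (ENSMUSG00000018698, chromosome 11, 84518284 to 84525535, minus strand), the close relative of Lhx5, was likewise highest in Wt1_flfl replicate 2 and lowest in Wt1_CKO replicate 2, at a lower level. It had 10.8 and 7.42 CPM in Wt1_CKO replicates 1 and 2, against 10.01 and 22.9 CPM in Wt1_flfl replicates 1 and 2. The genotypes overlapped, since Wt1_CKO replicate 1 lay above Wt1_flfl replicate 1. Its log2 fold change was -0.86 ± 0.650 (SE). In the authors' deposited table for replicate 2 the log2 fold change is -1.62 for Lhx1 and -1.33 for Lhx5. When Wt1_flfl replicate 1 was left out, the log2 fold changes were -1.33 for Lhx1 and -1.26 for Lhx5. That setting leaves Wt1_flfl replicate 2, the library where both genes were high, as the 1 library of its group. Without Wt1_flfl replicate 2 the log2 fold changes were -0.14 for Lhx1 and -0.16 for Lhx5.

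Nhlh2 (ENSMUSG00000048540, chromosome 3, 102010076 to 102015492, plus strand) encodes a basic helix-loop-helix factor of newborn neurons. It stood at 45.1 and 35.2 CPM in Wt1_CKO replicates 1 and 2, against 41.2 and 69.6 CPM in Wt1_flfl replicates 1 and 2. The genotypes overlapped and Wt1_flfl replicate 2 was again the high library. Ebf3 (ENSMUSG00000010476, chromosome 7, 137193673 to 137314445, minus strand) had 18.8 and 19.7 CPM in Wt1_CKO replicates 1 and 2, against 20.8 and 35.1 CPM in Wt1_flfl replicates 1 and 2. The Wt1_CKO libraries lay below both Wt1_flfl libraries. The log2 fold changes were -0.46 ± 0.418 (SE) for Nhlh2 and -0.54 ± 0.376 (SE) for Ebf3, and neither passed edgeR's test. Without Wt1_flfl replicate 2 they were -0.04 for Nhlh2 and -0.12 for Ebf3. Without Wt1_flfl replicate 1 they were -0.79 for Nhlh2 and -0.87 for Ebf3, with edgeR adjusted p of 0.0635 and 0.126. Lhx5 and Ebf3 were the members with both Wt1_CKO libraries below both Wt1_flfl libraries, 2 of 10, beside 13.5% of all tested genes.

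**Figure D3:**
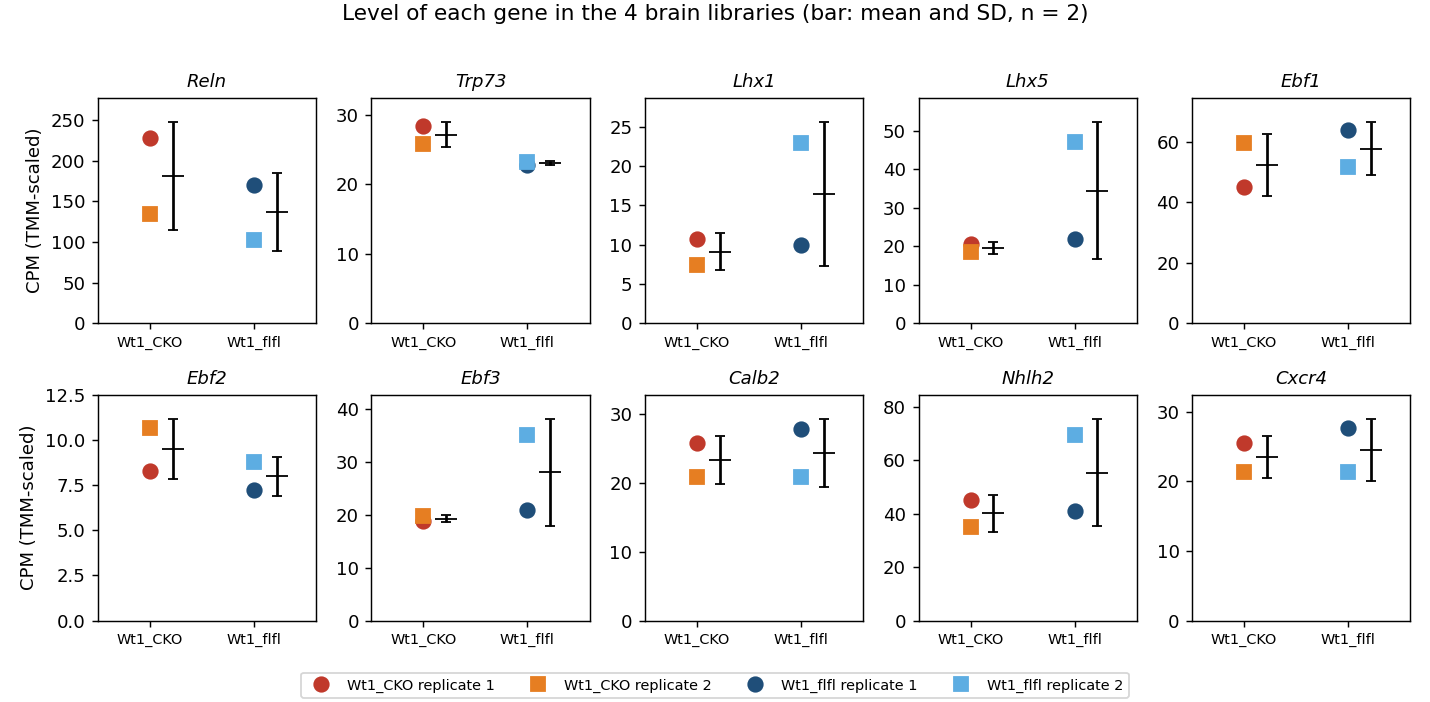
Level of each gene in TMM-scaled CPM (y axes from 0, linear, 1 panel per gene) in the Wt1_CKO libraries (left) and the Wt1_flfl libraries (right), with circles for replicate 1, squares for replicate 2, and black marks for the mean and SD of n = 2. Lhx1, Lhx5, Nhlh2 and Ebf3 share a high Wt1_flfl replicate 2, while in Reln the replicate 1 library of each genotype is the higher one.

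The promoters of the genes that were lower together in the replicate 2 libraries are shown because their sequences differ in base composition. RefSeq windows on GRCm38.p6, from 250 bases before to 50 bases after a start site, were found for 7 of the 10 members, among them Lhx1, Nhlh2 and Ebf3. The bases before the annotated transcripts are printed for Lhx1 (chr11:84525536-84525784, minus strand), Nhlh2 (chr3:102009895-102010075, plus strand) and Ebf3 (chr7:137314446-137314695, minus strand), each 5′ to 3′, and capitals would mark a match to a searched motif.
Lhx1: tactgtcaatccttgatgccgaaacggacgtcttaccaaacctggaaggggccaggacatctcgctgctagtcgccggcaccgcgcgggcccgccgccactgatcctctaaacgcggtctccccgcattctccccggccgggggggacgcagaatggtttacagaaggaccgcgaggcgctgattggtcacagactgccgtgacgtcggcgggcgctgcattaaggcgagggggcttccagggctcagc
Nhlh2: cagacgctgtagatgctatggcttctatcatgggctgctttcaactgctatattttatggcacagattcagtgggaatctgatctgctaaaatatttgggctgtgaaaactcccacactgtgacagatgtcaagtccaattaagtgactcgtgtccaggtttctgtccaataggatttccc
Ebf3: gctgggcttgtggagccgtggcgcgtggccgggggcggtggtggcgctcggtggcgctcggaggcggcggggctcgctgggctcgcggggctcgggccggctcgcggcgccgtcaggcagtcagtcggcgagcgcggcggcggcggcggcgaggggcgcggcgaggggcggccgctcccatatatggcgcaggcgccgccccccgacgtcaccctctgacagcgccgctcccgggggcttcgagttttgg
The GC content of the whole 300-base window was 65.7% for Lhx1, 43.3% for Nhlh2 and 77% for Ebf3, beside a median of 52.7% over 32851 windows. The motifs searched on both strands were the EBF palindrome (TCCC and GGGA joined by any 2 bases), the E-box CAGCTG of helix-loop-helix factors, the homeodomain core TAATTA, and the sites GCGGGGGCG and GCGTGGGNG of zinc finger proteins of the WT1 and EGR type. Their matches occur in 0.904%, 16.3%, 5.29%, 2.91% and 1.9% of all windows, in that order. None lies in the printed bases. The windows of Lhx1 and Ebf3 hold no match, and that of Nhlh2 holds 1 E-box, 44 to 49 bases after the start site.

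Marker lists of other cells that use the same genes differed between the libraries in several ways. Of the GABAergic and hypothalamic markers, 15 of 15 were listed in both tables. They summed to 1327 and 1862 CPM in Wt1_CKO replicates 1 and 2, against 1636 and 2135 CPM in Wt1_flfl replicates 1 and 2. The sums were higher in replicate 2 of both genotypes, and lower in Wt1_CKO within each table. Of the 14 tested genes of this list, 11 were lower in Wt1_CKO in both tables, beside 25.8% of all tested genes. Higher in both were 0, beside 27%. The median log2 fold change was -0.23, and none passed edgeR's test. Some single genes were high in Wt1_flfl replicate 2 alone. Nr5a1, which marks the ventromedial hypothalamus, had 2 and 0 counts in Wt1_CKO replicates 1 and 2, against 1 and 150 counts in Wt1_flfl replicates 1 and 2. Sim1, a factor of the paraventricular and supraoptic hypothalamus, had 36 and 56 counts in Wt1_CKO and 21 and 172 in Wt1_flfl. Dbx1, a homeobox gene of progenitors in ventral pallium, septum and hypothalamus, had 25 and 40 counts in Wt1_CKO and 50 and 213 in Wt1_flfl. Nr5a1, Sim1 and Dbx1 were singled out after their values were seen. The other lists gave 204 and 267 CPM in Wt1_CKO against 316 and 325 CPM in Wt1_flfl for thalamus, habenula and pretectum (10 of 10 listed), where Gata3 was near 0. In that list Olig3, a factor of thalamic progenitors, had 21 and 18 counts in Wt1_CKO against 182 and 157 counts in Wt1_flfl, and Shox2, a homeobox gene of thalamic neurons, had 11 and 3 counts in Wt1_CKO against 137 and 76 counts in Wt1_flfl. Tcf7l2, a thalamic transcription factor of the Wnt pathway, had a log2 fold change of -1.37. These 3 genes were lower in both Wt1_CKO libraries than in both Wt1_flfl libraries, and were not high in Wt1_flfl replicate 2 alone. None passed edgeR's adjusted threshold. They were the 3 of the list's 9 tested genes without overlap, beside 13.5% of all tested genes. The other tested genes had log2 fold changes from -0.76 for Gbx2 to 0.06 for Pou4f1. Much of the sum was Nefm, at 52.4 and 87.0 CPM in Wt1_CKO and 59.4 and 89.9 CPM in Wt1_flfl, and Six3. Meninges and mesenchyme (10 of 10 listed) gave 217 and 226 CPM in Wt1_CKO against 271 and 310 CPM in Wt1_flfl. Most of these sums was Zic1 alone, with 165 and 174 CPM in Wt1_CKO and 221 and 225 CPM in Wt1_flfl. Over the 9 tested genes of the list, the median log2 ratio was 0.004 with the replicate 1 libraries and -0.92 with the replicate 2 libraries. Olfactory and cranial sensory neurons (7 of 10 listed) gave 387 and 281 CPM in Wt1_CKO against 442 and 353 CPM in Wt1_flfl. Nearly all of that was Gap43 alone, with 364 and 264 CPM in Wt1_CKO and 419 and 332 CPM in Wt1_flfl. The part of the cells of these lists in the levels of Lhx1, Lhx5, Nhlh2 and Ebf3 was not tested.

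**Figure D4:**
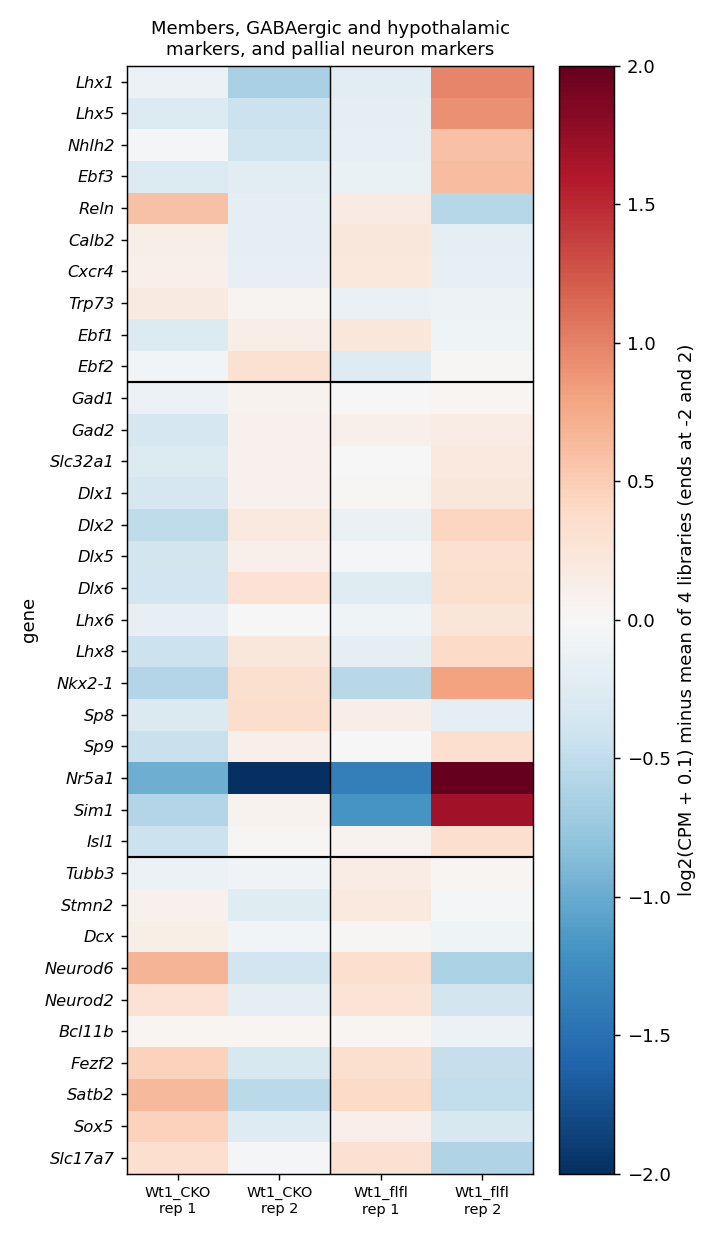
Level of each gene in each library as log2(CPM + 0.1) minus its mean over the 4 libraries (colour, limited to -2 and 2), for the 10 members (top block), the GABAergic and hypothalamic markers (middle block) and the markers of postmitotic pallial neurons (bottom block). Wt1_flfl replicate 2 is highest for Lhx1, Lhx5, Nhlh2 and Ebf3, and for most genes of the middle block, Nr5a1 and Sim1 among them. The other libraries hold 0 to 2 counts of Nr5a1.

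The 2 remaining EBF genes did not follow Ebf3. Ebf1 (ENSMUSG00000057098, chromosome 11, 44617317 to 45008091, plus strand) had 45.1 and 59.5 CPM in Wt1_CKO replicates 1 and 2, against 64.0 and 51.5 CPM in Wt1_flfl replicates 1 and 2. The genotypes overlapped, and the log2 ratio was -0.50 with the replicate 1 libraries and 0.21 with the replicate 2 libraries. Ebf2 (ENSMUSG00000022053, chromosome 14, 67233292 to 67430918, plus strand) had 8.31 and 10.7 CPM in Wt1_CKO and 7.21 and 8.76 CPM in Wt1_flfl, again with overlap. The log2 fold changes were -0.14 ± 0.253 (SE) for Ebf1 and 0.25 ± 0.225 (SE) for Ebf2, and neither passed. The value of Ebf2 was 0.42 without Wt1_CKO replicate 1 and 0.06 without Wt1_CKO replicate 2. Ebf4, the fourth family member, averaged 25.1 ± 0.296 CPM in Wt1_CKO and 28.3 ± 3.12 CPM in Wt1_flfl (SD, n = 2 each). Per length, Ebf1 stood at 2.27 and 2.86 times the Ebf3 level in Wt1_CKO replicates 1 and 2, against 2.91 and 1.39 times in Wt1_flfl replicates 1 and 2. Endothelial and mural markers, of cells that also use Ebf1 and Cxcr4, summed to 280 and 265 CPM in Wt1_CKO and to 284 and 281 CPM in Wt1_flfl (10 of 10 listed).

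Reln (ENSMUSG00000042453, chromosome 5, 21884454 to 22344702, minus strand), the gene of the secreted protein itself, had more reads in Wt1_CKO than in Wt1_flfl within each table. It had 228 and 134 CPM in Wt1_CKO replicates 1 and 2, against 170 and 102 CPM in Wt1_flfl replicates 1 and 2. The genotypes overlapped, because Wt1_CKO replicate 2 lay below Wt1_flfl replicate 1. The fold was 1.34 with the replicate 1 libraries and 1.31 with the replicate 2 libraries. Over all libraries the log2 fold change was 0.41 ± 0.530 (SE). Without Wt1_CKO replicate 1 it was -0.025, and without Wt1_flfl replicate 2 it was 0.09. Without Wt1_CKO replicate 2 it was 0.74, and without Wt1_flfl replicate 1 it was 0.82 with an edgeR adjusted p of 0.166. The overlapping pseudogene Gm16111 had 20 and 9 counts in Wt1_CKO and 4 and 5 in Wt1_flfl.

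The Reln promoter is shown because it holds overlapping copies of 1 searched motif, in capitals (chr5:22344706-22344955, minus strand, 5′ to 3′, RefSeq, GRCm38.p6).
Reln: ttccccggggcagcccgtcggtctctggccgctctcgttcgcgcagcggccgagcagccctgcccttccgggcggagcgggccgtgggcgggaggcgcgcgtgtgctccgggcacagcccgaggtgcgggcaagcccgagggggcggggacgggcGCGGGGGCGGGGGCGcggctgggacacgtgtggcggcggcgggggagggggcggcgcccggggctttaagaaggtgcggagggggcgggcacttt
The capitals mark 2 matches of GCGGGGGCG, which share bases, at 95 to 87 and at 89 to 81 bases before the start site. Such a match is found in 2.91% of all windows, and the window of Reln has a GC content of 80.7%. Cxcr4 has 1 match on the opposite strand, at 94 to 86 bases before its start site. The upstream start site of Trp73 has 1 match of GCGTGGGNG at 167 to 159 bases and 1 E-box at 187 to 182 bases before it. A match describes letters only, and no binding was measured.

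Trp73 (ENSMUSG00000029026, chromosome 4, 154056253 to 154140208, minus strand) encodes p73, a p53 relative on which the survival of Cajal-Retzius cells depends. It had 28.5 and 25.9 CPM in Wt1_CKO replicates 1 and 2, against 22.8 and 23.2 CPM in Wt1_flfl replicates 1 and 2. Both Wt1_CKO libraries lay above both Wt1_flfl libraries, which held for 1 of 10 members and for 13.4% of all tested genes. The means were 27.2 ± 1.84 CPM in Wt1_CKO and 23.0 ± 0.287 CPM in Wt1_flfl (SD, n = 2 each), a log2 fold change of 0.24 ± 0.0699 (SE). An SE from 2 libraries a group is itself poorly known. Gene counts do not separate the transcripts of the 2 start sites of Trp73. Trp53, which encodes p53, had 157 and 160 CPM in Wt1_CKO and 178 and 161 CPM in Wt1_flfl.

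The receptors and intracellular parts of the Reelin pathway were compared beside the ligand. Of 16 listed genes 16 were tested. Among them 7 were higher in Wt1_CKO in both tables, beside 27% of all tested genes, and 3 were lower in both, beside 25.8%. In 4 both Wt1_CKO libraries lay above both Wt1_flfl libraries, beside 13.4% of all tested genes, and in 2 they lay below, beside 13.5%. The median log2 fold change was 0.06, and none passed edgeR's test. Vldlr, a Reelin receptor, had 47.8 and 39.0 CPM in Wt1_CKO and 38.9 and 36.5 CPM in Wt1_flfl. Lrp8, the receptor ApoER2, had 247 and 204 CPM in Wt1_CKO and 217 and 208 CPM in Wt1_flfl. Dab1, the adaptor that both receptors use, had 128 and 89.4 CPM in Wt1_CKO and 110 and 82.6 CPM in Wt1_flfl, so that, as in Reln, the replicate 1 library of each genotype was the higher one. Fyn, a kinase that phosphorylates Dab1, had 198 and 195 CPM in Wt1_CKO and 228 CPM in each Wt1_flfl library, with a log2 fold change of -0.22 that did not pass.

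Calb2 (ENSMUSG00000003657, chromosome 8, 110137502 to 110168210, minus strand) and Cxcr4 (ENSMUSG00000045382, chromosome 1, 128588199 to 128592293, minus strand) differed least between the genotypes. Calb2 had 25.8 and 20.9 CPM in Wt1_CKO replicates 1 and 2, against 27.8 and 20.8 CPM in Wt1_flfl replicates 1 and 2. Cxcr4 had 25.5 and 21.3 CPM in Wt1_CKO replicates 1 and 2, against 27.6 and 21.3 CPM in Wt1_flfl replicates 1 and 2. In both genes the replicate 1 libraries were high and the replicate 2 libraries low, and the genotypes overlapped. The log2 fold change was -0.06 for each, with an SE of 0.256 for Calb2 and 0.226 for Cxcr4, and neither passed. Per length, Calb2 stood at 1.01 to 1.05 times the Cxcr4 level in every library. Cxcl12, the ligand of CXCR4, had 24.5 and 19.4 CPM in Wt1_CKO and 25.0 and 20.7 CPM in Wt1_flfl. Ackr3, which encodes the scavenger receptor of the same ligand, had 59.9 and 51.1 CPM in Wt1_CKO and 58.5 and 49.0 CPM in Wt1_flfl. Of the 7 tested genes of that pathway, 1 was higher in Wt1_CKO in both tables, beside 27% of all tested genes. Another 4 were lower in both, beside 25.8%. The median log2 fold change was -0.13, and none passed.

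Several signals and factors that define the hem had few counts in every library. Wnt3a, a Wnt ligand of the hem, had 13 and 19 counts in Wt1_CKO and 3 and 10 counts in Wt1_flfl. Wnt2b had 30 and 40 counts in Wt1_CKO and 20 and 28 counts in Wt1_flfl. Lmx1a, a homeobox factor of hem and roof plate, had 44 and 25 counts in Wt1_CKO and 10 and 36 counts in Wt1_flfl. Wnt8b, of the medial pallium and hypothalamus, had 5.16 and 4.52 CPM in Wt1_CKO and 3.30 and 11.03 CPM in Wt1_flfl, with Wt1_flfl replicate 2 high as in Lhx5. Of 25 genes of the hem list 21 were tested. Among them 8 were higher in Wt1_CKO in both tables, beside 27% of all tested genes, and 2 were lower in both, beside 25.8%. In 6 both Wt1_CKO libraries lay above both Wt1_flfl libraries, beside 13.4% of all tested genes, and in 1 they lay below, beside 13.5%. At an unadjusted p under 0.05 edgeR found 1 of them, Gli3, with a log2 fold change of 0.34 and p of 0.0138. The median log2 fold change of the list was 0.13, and none passed edgeR's adjusted threshold. Of the markers of the choroid plexus, the tissue next to the hem, 10 of 10 were listed. They summed to 85.6 and 44.8 CPM in Wt1_CKO and to 36.4 and 79.2 CPM in Wt1_flfl. Ttr had 717 and 17 counts in Wt1_CKO and 4 and 213 counts in Wt1_flfl. It was the largest part of the sum only in Wt1_CKO replicate 1, at 40.3 CPM. Otx2 was the largest part in the other libraries, at 24.0 CPM in Wt1_CKO replicate 2 and 22.4 and 31.3 CPM in Wt1_flfl. The part of unequal sampling of choroid plexus in the hem values was not tested.

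Other genes reported in Cajal-Retzius cells had lower values in Wt1_CKO in both tables more often than higher ones, without passing the adjusted test. Of 20 such genes 20 were tested, 6 were higher in Wt1_CKO in both tables, beside 27% of all tested genes, and 12 were lower in both, beside 25.8%. In 8 of the 20 both Wt1_CKO libraries lay below both Wt1_flfl libraries, beside 13.5% of all tested genes, and in 2 they lay above, beside 13.4%. At an unadjusted p under 0.05 edgeR found 4 of them. The median log2 fold change of the list was -0.20. Zic1, a zinc finger factor of septum, hem-derived cells and meninges, had 165 and 174 CPM in Wt1_CKO and 221 and 225 CPM in Wt1_flfl, and Zic2 had 49.1 and 44.7 CPM in Wt1_CKO and 64.3 and 73.8 CPM in Wt1_flfl. The groups did not overlap in either gene, with log2 fold changes of -0.39 for Zic1 and -0.56 for Zic2 that missed edgeR's adjusted threshold. Tbr1, a T-box factor of early cortical neurons, had 356 and 263 CPM in Wt1_CKO and 345 and 260 CPM in Wt1_flfl. Eomes, of intermediate progenitors and some Cajal-Retzius cells, had 180 and 141 CPM in Wt1_CKO and 153 and 114 CPM in Wt1_flfl. Nhlh1, the paralog of Nhlh2, had 58.4 and 52.1 CPM in Wt1_CKO and 53.8 and 46.9 CPM in Wt1_flfl, and so did not share the high Wt1_flfl replicate 2 of Nhlh2. Among 22 tested relatives and protein partners of the members, 3 were higher in both tables, beside 27% of all tested genes. Of the same 22, 12 were lower in both, beside 25.8%. In 7 both Wt1_CKO libraries lay below both Wt1_flfl libraries, beside 13.5% of all tested genes, and in 0 above, beside 13.4%. The median log2 fold change was -0.09 and none passed. Ldb1, the cofactor that LIM homeobox proteins bind, averaged 506 ± 24.8 CPM in Wt1_CKO and 526 ± 16.5 CPM in Wt1_flfl (SD, n = 2 each).

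The replicate numbers, which the deposited tables set side by side, differed more than the genotypes for several members. In edgeR's test of replicate 2 against replicate 1 with genotype as a covariate, Reln was the 1 member of 10 called, beside 7.14% of all tested genes. Its log2 fold change was -0.75 with an adjusted p of 2.35e-05, and replicate 2 was at 0.588 of replicate 1 in Wt1_CKO and at 0.602 in Wt1_flfl. Calb2 had a log2 fold change of -0.36 and Cxcr4 of -0.32 in the same contrast, lower in replicate 2 in both genotypes, with edgeR adjusted p of 0.125 and 0.182. Lhx1, in turn, was at 0.689 of replicate 1 in Wt1_CKO and at 2.29 in Wt1_flfl, and Lhx5 at 0.898 in Wt1_CKO and at 2.15 in Wt1_flfl, so their replicate contrasts averaged unlike differences. Markers of postmitotic pallial neurons summed to 5345 and 4545 CPM in Wt1_CKO replicates 1 and 2 and to 5514 and 4619 CPM in Wt1_flfl replicates 1 and 2 (10 of 10 listed), lower in replicate 2 as Reln was. Neurod6, a cortical neuron factor of that list, had 761 and 363 CPM in Wt1_CKO and 600 and 306 CPM in Wt1_flfl. Its part in the replicate difference of Reln was not tested, and no label says what the replicate number stands for.

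**Figure D5:**
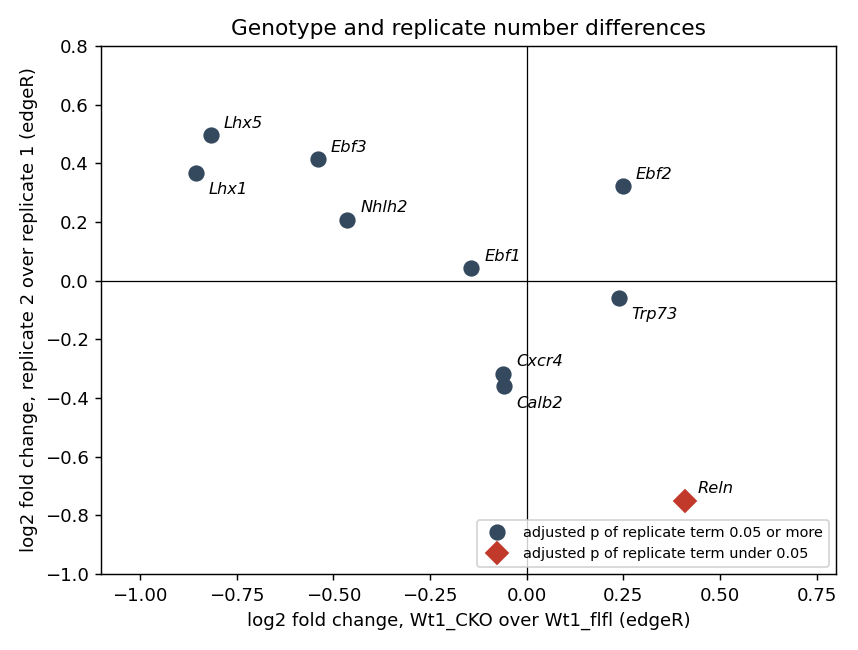
Log2 fold change of Wt1_CKO over Wt1_flfl (x axis) and of replicate 2 over replicate 1 (y axis) for the 10 genes, both from edgeR. Reln, the diamond at -0.75 on the y axis, is the gene whose replicate contrast passed an adjusted p of 0.05, and no gene passed for genotype.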

How the data were processed

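Poly(A) RNA of 4 mouse brain samples was sequenced. Per the labels' protocols, mRNA was enriched with oligo(dT), and random primers were used for cDNA. Per the submitters' processing notes, Bowtie2 2.2.3, TopHat2 2.0.12 and HTSeq 0.6.0 were used with mm9. Positions in the tables matched GENCODE vM21 on GRCm38 for 91.5% of 19462 genes and for all 10 members, so they are given as GRCm38. The authors deposited 1 table for each replicate number, with whole-number counts per gene of 2 libraries. The deposited CPM are counts per library total, a total slightly above the sum of the listed genes, with 0 entered as 0.5. The deposited fold ratio, its log2 value and the authors' p-values set single libraries against each other, and their test is not given in the sources used here.

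For genes present in both tables, edgeR 4.0.16 in R 4.3.3 was run on the counts (filterByExpr with a minimum count of 10, TMM, quasi-likelihood F test, Benjamini-Hochberg adjustment, threshold 0.05), after a trial on simulated data. Library totals include genes listed in 1 table only. CPM printed here are TMM-scaled. Log2 ratios within a table had a prior count of 2 added, and each SE was computed from the group variances of those log2 CPM. CPM per kb used the union of GENCODE vM21 exons. Alternatives used DESeq2 1.42.0, limma 3.58.1 voom, other scalings and filters, the replicate number as a block and each library left out.

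The members and 13 further lists were chosen with earlier results of these data known. The naming rule took all 10 members, from each further list any gene called, the 2 with the smallest p and the 2 with the highest CPM, and a set of pathway genes. Of the genes it took beside the members, those nearest to the members' roles are described and the others are covered by counts. Genes outside the rule (Nr5a1, Sim1, Dbx1, Neurod6, Gata3, Tcf7l2, Gbx2, Pou4f1, Xist, Rpl3-ps1, the rRNA entry and genes overlapping a member) were chosen after their values were seen. No molecular identifiers are named in the labels, so PCR copies may be among the counts.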

Additional observations from a re-analysis of the deposited data

How the results depend on the processing

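The count of genes called was 1 with edgeR as described, 42 with the replicate number as a block, 5 with DESeq2, and 3 to 77 when 1 library was left out. No member was called with the block, DESeq2, voom, other scalings or other filters, and 0 to 2 were called when 1 library was left out, the 2 being Lhx1 and Lhx5 without Wt1_flfl replicate 1. A fit without 1 library leaves 1 sample in an arm, which is then taken to vary like the others. The median log2 fold change of the members was -0.0854 with library totals without TMM and -0.208 to 0.0688 with 1 library left out. With 1 library left out, log2 fold changes ranged from -0.025 to 0.821 for Reln, 0.0567 to 0.417 for Ebf2, -0.356 to 0.0427 for Ebf1, -0.253 to 0.163 for Calb2 and -0.236 to 0.138 for Cxcr4. Signs turned without Wt1_CKO replicate 1 for Reln and for Ebf1, without Wt1_CKO replicate 2 for Calb2 (0.084) and Cxcr4 (0.063), and without Wt1_flfl replicate 1 for Ebf1 (0.0216), Calb2 and Cxcr4. The causes were not tested. Members below or above without overlap numbered 3, beside 13.5% of all tested genes below and 13.4% above. With 1 library left out they numbered 5 to 8, a setting chosen after seeing the data. That setting compares 1 library with 2, where non-overlap is easier to reach. The share over all genes was not computed for it, so the rise cannot be read as a clearer genotype difference. With 2 fold in place of 1.5 fold, 2 members were past the limit in the replicate 2 libraries. The share of all tested genes past 2 fold was not computed, so this count has no measure beside it. The labels share only replicate numbers across the genotypes. Same-numbered libraries deviated together with a correlation of 0.281 across genes, which is a hint from the data and not the design. With the replicate block the adjusted p of Reln was 0.061, its lowest over the alternatives. Groups of 2 libraries limit each test here, and an exact permutation test of 2 against 2 cannot go below 0.333.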
